A study of Drosophila melanogaster with 62 samples.

Results

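The genes described here encode 8 small secreted immune peptides of the fruit fly Drosophila melanogaster that the Toll pathway induces. They were taken by name from a table of 14659 genes, and all 8 names were found: IM1, IM2, IM3, CG15065, CG15067, CG15068, IM10 and IM14. In current RefSeq nomenclature 6 of them are bomanins: IM1 is BomS1, IM2 is BomS2, IM3 is BomS3, CG15065 is BomS5, CG15068 is BomS6 and CG15067 is BomBc2. The other two are IM10, now BaraA2, whose precursor is cut into baramicin peptides, and IM14, now Dso2, a daisho peptide. All 8 genes lie on chromosome arm 2R, and no sequence or position is given here. The 6 bomanin genes stand in a single cluster. In the order of the current annotation it reads BomT1, BomBc1, IM1, BomS4, CG15067, IM2, IM3, BomT2, CG15065 and CG15068.

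In flies, fungi and many Gram-positive bacteria are sensed in the haemolymph by circulating recognition proteins. These set off a cascade of serine proteases that cuts the ligand Spätzle, and cut Spätzle activates the receptor Toll. Toll signalling releases the NF-kappaB factors Dif and Dorsal from their inhibitor Cactus, and the fat body, the insect counterpart of liver and adipose tissue, then secretes peptides into the blood. The IM names, for immune-induced molecules, come from peaks that appear in the haemolymph of infected flies. In adult flies the bomanins as a group are needed to survive infections that Toll controls. Baramicin and daisho peptides act against fungi there. The short bomanins, whose RefSeq names begin with BomS, are little more than a signal peptide and a single conserved motif, whereas CG15067 belongs to the longer bicipital class.

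Fat bodies of larvae of the third instar, at the wandering stage, had been profiled by RNA-seq on food of different sucrose content, in 4 experiments. In each, larvae came from a cross of a UAS-Dcr2 (X) GAL4 driver stock, cg-GAL4 or r4-GAL4, with a VDRC stock, so every group carries the driver and Dcr2, the enzyme that strengthens RNA interference. Both drivers are used as fat body drivers, and cg-GAL4 is also known to be active in blood cells. The cg-GAL4 males were dissected and comprised Tfb1 RNAi (VDRC 12580) and w1118 controls, each on 1.0 M and 0.15 M sucrose, with 3 libraries per group. Tfb1 is a subunit of the general transcription and repair factor TFIIH. The cg-GAL4 females were w1118 controls on 0.7 M or 0.15 M sucrose, 3 libraries each. The r4-GAL4 females crossed to w1118 were kept on 0.15, 0.3, 0.7 or 1.0 M sucrose, 3 libraries each. The r4-GAL4 females of the 60100 background were FOXO RNAi (106097), p53 RNAi (103001), Stat92E RNAi (106980) and 60100 controls. Each was kept on 0.7 M and on 0.15 M sucrose, with 4 libraries per group but 3 columns for p53 RNAi at 0.15 M, for which the labels list 4 samples. All female tissue was floated, that is, sheared and separated by centrifugation. Each RNAi is represented by a single line. The labels do not say whether replicates were separate cultures, so each p reflects library-to-library spread, which may be technical.

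The values are FPKM, fragments per kilobase of transcript, which the table had scaled so that a fixed gene rank equals 1 in every library of an experiment. They allow levels of different genes to be compared and are relative within an experiment. Changes are given on the log2 (scaled FPKM + 1) scale with the standard error of a limma fit over all genes of the experiment. That scale understates the change of low genes, and against a group at 0 a change depends on the pseudocount and is no fold. A gene was called at a Benjamini-Hochberg adjusted p under 0.05 over all genes tested. Genes needed a mean of at least 1 scaled FPKM in the experiment. Of the 8 members, 7 passed this filter in cg males and in cg females (not CG15067), 7 in r4 60100 females (not IM1) and 4 in r4 w1118 females (not IM1, IM2, CG15065 or IM14). The table holds no counts and its low values show no smallest step of 1 read, so depth is unknown. Between 1 and 5 of 79 ribosomal protein genes were listed at 0 in every library, so a 0 is reported only as listed. Library numbers within the male and 60100 groups follow column order and are names only.

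The preparations carried RNA of other tissues. Summed fat body markers reached 1629 to 15032 scaled FPKM per library, haemocyte markers 0.282 to 15.3, gut proteases 1.76 to 352 and salivary glue genes 5.41 to 3225, the last highest in the dissected males. The targeted transcripts were low. Stat92E had 0.15 to 0.35 under Stat92E RNAi at 0.7 M, against 0.71 to 1.47 in controls. Tfb1 had 0.41 to 0.47 under Tfb1 RNAi at 1.0 M, against 0.52 to 0.67 in controls, and foxo (0.14 to 0.24 against 0.20 to 0.50) and p53 (0.09 to 0.16 against 0.17 to 0.26) were lower still at 0.7 M. In bulk tissue fewer cells of a type and less RNA per cell cannot be told apart.

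Levels of the 8 transcripts spanned a wide range, and which bomanin led depended on the experiment. In r4 60100 females CG15067 was the most abundant of the 6 bomanins in 20 of 31 libraries, among them all 16 kept on 0.7 M sucrose, and its highest value of all was 157 scaled FPKM. In the other experiments it was low: it was listed at 0 in 8 of 12 male libraries, 4 of 6 cg female libraries and 7 of 12 r4 w1118 libraries. There IM3 led in 5 of 12 male and 4 of 6 cg female libraries, and CG15068 led in 8 of the 9 r4 w1118 libraries with any bomanin above 0. IM10 was the only member above 0 in all 61 libraries, between 0.659 and 80.3. IM1 was listed at 0 in 33 libraries, including all 12 of r4 w1118 females. Members that are near copies of each other may share reads, so values of the short bomanins IM1, IM2 and CG15065 are uncertain relative to one another. IM10 has a near-identical neighbour, CG33470 (BaraA1), whose value was 1.00 to 1.56 times that of IM10 in every library (r = 0.9992 over 61 libraries), so reads of this pair cannot be assigned to either gene.

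**Figure D1:**
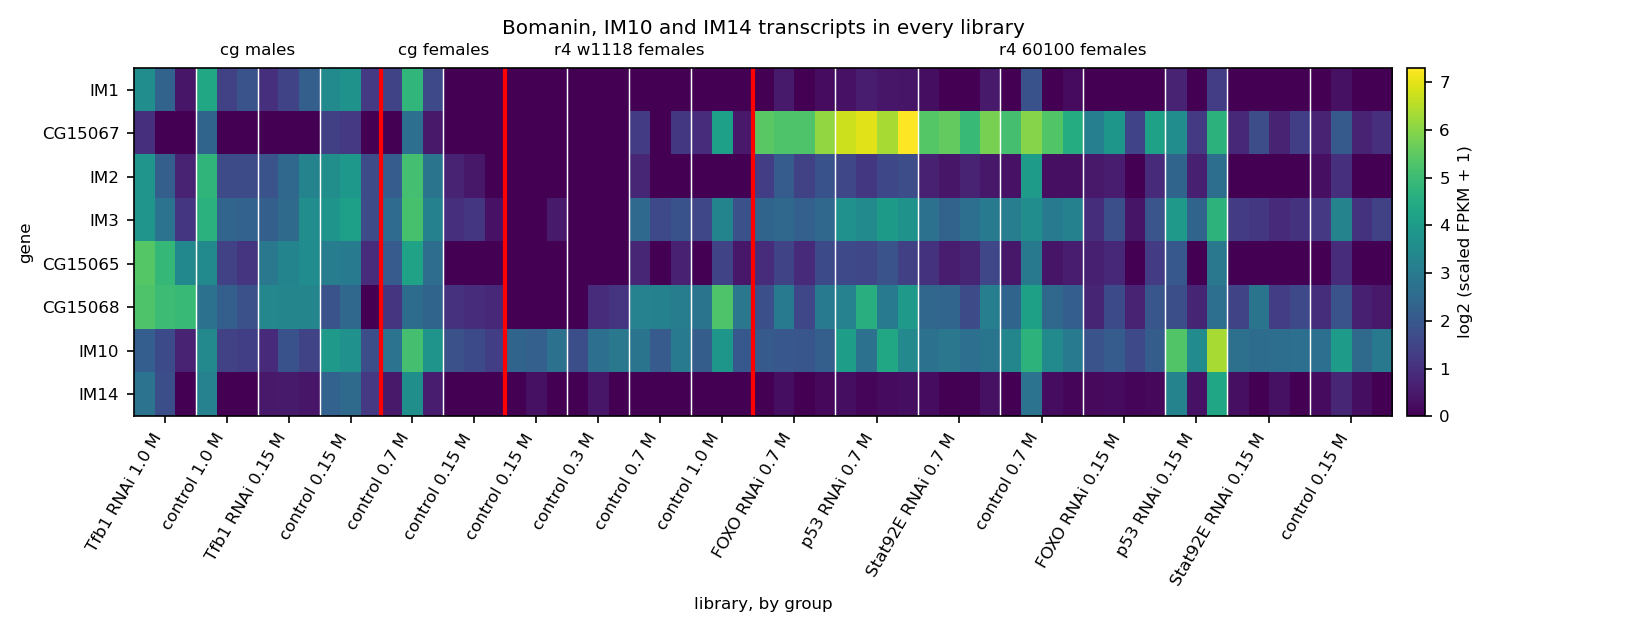
Heat map of log2 (scaled FPKM + 1) of the 8 genes (rows) in each of the 61 libraries (columns), grouped by genotype and diet, with red lines between the 4 experiments. The CG15067 row is bright in r4 60100 females on 0.7 M sucrose, up to 157 scaled FPKM, and dark in most libraries of the other experiments, and single libraries such as library 2 of the 60100 controls at 0.7 M are bright across rows.

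The first question was how the peptides responded to dietary sugar in control larvae. In cg females on 0.7 M sucrose, 5 of the 7 members tested were called higher than on 0.15 M and none lower, where 27.5% of all 2131 genes tested were called higher. With no filter on low values 2 were called, CG15065 and IM3, and the adjusted p was 0.058 for IM2, 0.12 for IM1 and 0.054 for IM10. CG15065 had 3.25, 17.6 and 5.12 scaled FPKM at 0.7 M and was listed at 0 in all 3 libraries at 0.15 M, a difference of 2.97 ± 0.51 (SE), adjusted p = 0.0051. IM2 had 3.39, 33.9 and 6.03 at 0.7 M, against 0.640, 0.377 and 0 at 0.15 M (2.96 ± 0.73, adjusted p = 0.02). IM3 had 4.89, 35.1 and 8.22, against 0.965, 1.23 and 0.269 (2.82 ± 0.65, adjusted p = 0.016). In each of these short bomanins library 2 at 0.7 M was far above the other two, and even the lowest library at 0.7 M lay above every library at 0.15 M.

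The remaining members followed the same order of libraries. IM10 had 5.90, 34.8 and 12.8 scaled FPKM at 0.7 M, against 2.53, 2.10 and 1.57 at 0.15 M (2.31 ± 0.55, adjusted p = 0.018). IM1 had 1.80, 27.2 and 2.07 at 0.7 M and was listed at 0 in all 3 libraries at 0.15 M (2.64 ± 0.85, adjusted p = 0.048). CG15068 had 1.14, 4.97 and 4.09, against 1.07, 0.907 and 0.743, and missed the threshold (1.08 ± 0.37, adjusted p = 0.057). IM14 had 0.423, 11.4 and 0.456 at 0.7 M and was listed at 0 at 0.15 M (1.56 ± 0.81, adjusted p = 0.17). CG15067 had 0, 5.31 and 0.424 at 0.7 M and was listed at 0 at 0.15 M (exact permutation p = 0.4, where 0.1 is the smallest possible). All 7 members tested lay without overlap above the 0.15 M libraries, as did 36.5% of all genes tested. Of the 7, 6 passed the filter only through their values at 0.7 M, since all but IM10 had a mean under 1 at 0.15 M, so their number is no support for a rise.

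Only CG15065 kept its call whichever single library was left out. Without library 3 at 0.15 M the adjusted p was 0.052 for IM3, 0.061 for IM2 and 0.056 for IM10, and without library 2 at 0.15 M it was 0.059 for IM2 and 0.057 for IM10. IM1 lost its call when any 1 of the libraries at 0.15 M was left out (adjusted p up to 0.12) and without library 3 at 0.7 M, and was under the filter without library 2 at 0.7 M. CG15068 gained one without library 1 at 0.7 M (1.54 ± 0.13, adjusted p = 0.0031). Without library 2 at 0.7 M the changes of CG15065, IM3, IM2 and IM10 were between 1.68 and 2.35 and all 4 were called. Haemocyte markers were lower at 0.7 M in the same libraries: all 4 tested were called lower and their sum was 0.282 to 0.619, against 8.62 to 12.6 at 0.15 M. Gut markers summed to 1.76 to 1.93 at 0.7 M, against 4.84 to 68.9 at 0.15 M, and fat body markers to 10520 to 12300, against 5286 to 7186, with 5 of 8 called higher. Salivary markers summed to 5.41 to 18.5 at 0.7 M, against 33.3 to 590 at 0.15 M. Sgs7 (-5.61 ± 1.04, adjusted p = 0.0071) and Sgs5 (-2.76 ± 0.80, adjusted p = 0.034) were called lower, and the other salivary markers tested were not called. The part of these shifts in the result was not tested.

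**Figure D2:**
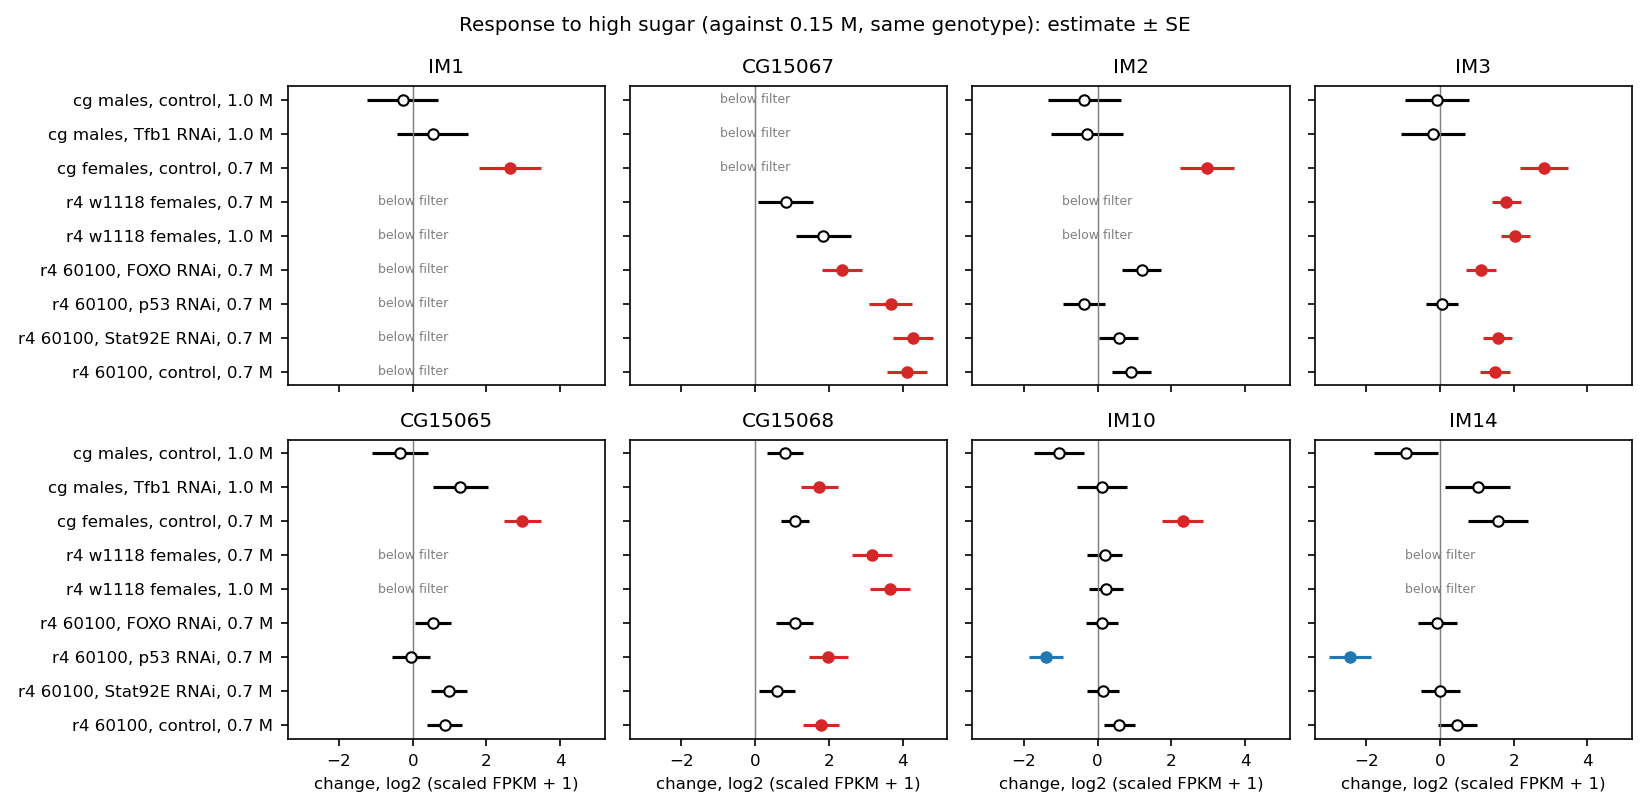
Change on high sugar against 0.15 M sucrose of the same genotype for each of the 8 genes (log2 of scaled FPKM + 1, estimate ± SE), with a row for each genotype and experiment. Filled red points were called higher, filled blue points lower and open points were not called. CG15067 moves most in r4 60100 females, 4.13 in controls, CG15068 in r4 w1118 females, 3.66 at 1.0 M, and IM1, IM2, IM3 and CG15065 in cg females, 2.64 to 2.97.

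The r4 w1118 females gave a series of 4 sucrose concentrations. CG15068 and IM3 were called higher at 0.7 M, at 1.0 M and as a trend over the series, and none of the 4 members tested was called at 0.3 M. Of all 2177 genes tested, 6.34% were called higher at 0.3 M, 11.3% at 0.7 M, 12.6% at 1.0 M and 12% by trend. CG15068 and IM3 passed the filter only through their values at 0.7 and 1.0 M, so the number of members called is no support for a rise. With no filter on low values both genes kept these calls (adjusted p = 0.0018 to 0.025). CG15068 was listed at 0 in all 3 libraries at 0.15 M, and had 0, 0.887 and 1.20 scaled FPKM on 0.3 M food, 8.41, 8.30 and 7.37 on 0.7 M food and 5.96, 38.1 and 6.41 on 1.0 M food. Its libraries at 0.7 and 1.0 M lay above all those at the lower concentrations. Against 0.15 M its change was 3.17 ± 0.55 (SE), adjusted p = 0.0045 at 0.7 M and 3.66 ± 0.55 (SE), adjusted p = 0.0013 at 1.0 M. The slope over the series was 4.58 ± 0.58 (SE), adjusted p = 0.00038 per 1 M of sucrose.

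IM3 was lower throughout, with 0, 0 and 0.443 scaled FPKM on 0.15 M food, 0 in all 3 libraries at 0.3 M, 4.66, 2.03 and 2.56 on 0.7 M food and 1.93, 8.83 and 2.49 on 1.0 M food. The changes were 1.80 ± 0.39 (SE), adjusted p = 0.014 at 0.7 M and 2.04 ± 0.39 (SE), adjusted p = 0.0056 at 1.0 M, with a slope of 2.86 ± 0.42 (SE), adjusted p = 0.00092 per 1 M. For neither gene did leaving out any single library end a call. The step lay between 0.3 and 0.7 M in both genes, and values at 0.7 and 1.0 M overlapped.

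CG15067 was listed at 0 in all 6 libraries at 0.15 and 0.3 M, and had 1.43, 0 and 1.28 on 0.7 M food and 0.913, 16.3 and 0.402 on 1.0 M food. Its change at 1.0 M missed the threshold (1.85 ± 0.74, adjusted p = 0.12), and passed it without library 3 at 1.0 M (2.52 ± 0.72, adjusted p = 0.045). Without library 2 at 1.0 M, the one at 16.3, its mean over the experiment was 0.366, under the filter, and it was not tested. CG15065 appeared only at the 2 highest concentrations, with 0.739, 0 and 0.578 on 0.7 M food and 0, 1.80 and 0.391 on 1.0 M food. IM2 was above 0 in 1 library of 12 and IM14 in 2. IM10 had 4.15, 3.68 and 5.62 on 0.15 M food, 2.39, 5.35 and 6.54 on 0.3 M food, 5.97, 3.30 and 6.95 on 0.7 M food and 3.42, 13.6 and 2.996 on 1.0 M food, and no comparison was called. Its change was 0.19 ± 0.47 (SE), adjusted p = 0.81 at 0.7 M and 0.23 ± 0.47 (SE), adjusted p = 0.78 at 1.0 M. The cg and r4 experiments were scaled apart, so their responses were not tested against each other. Library 2 at 1.0 M was the highest of its group in CG15068, IM3, CG15067, CG15065 and IM10. Gut markers fell along this series: 4 of 6 were called lower at 0.7 M and at 1.0 M. Their sum was 54.7 to 143 at 0.15 M and 2.97 to 6.08 at 1.0 M. The haemocyte marker CG8193 was called lower at 0.7 M (-1.48 ± 0.29, adjusted p = 0.0085) and 1.0 M (-1.50 ± 0.29, adjusted p = 0.0052), and Pxn was not called. Of the muscle markers only Act57B was called, higher at 0.3 M (1.41 ± 0.18, adjusted p = 0.0044) and 0.7 M (0.63 ± 0.18, adjusted p = 0.041). The part of these markers in the result was not tested.

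**Figure D3:**
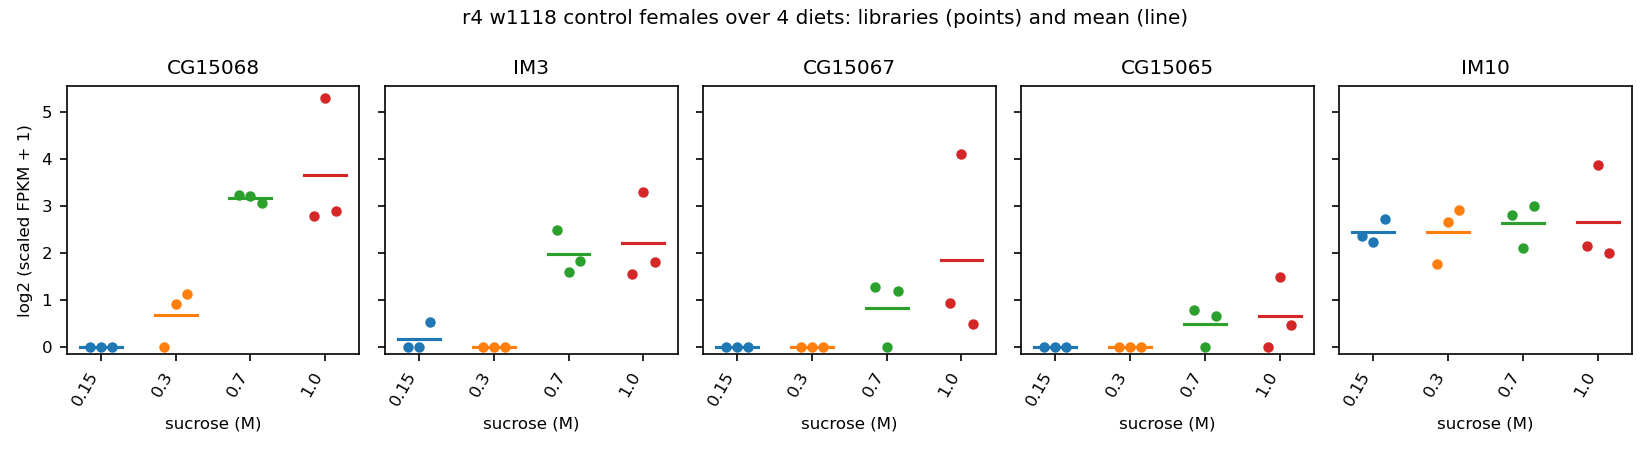
Values in r4 w1118 females at 4 sucrose concentrations, as log2 (scaled FPKM + 1), for CG15068, IM3, CG15067, CG15065 and IM10, with a point per library and a line at the mean of 3. CG15068 lies at 7.37 to 8.41 scaled FPKM at 0.7 M and at 0 in all libraries at 0.15 M, while IM10 shows no step.

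In r4 60100 controls on 0.7 M sucrose, 3 of 7 members were called higher than on 0.15 M and none lower, where 18.7% of 2521 genes were called higher. CG15067 had 34.5, 61.9, 38.6 and 22.1 scaled FPKM at 0.7 M, against 0.615, 3.15, 0.619 and 1.01 at 0.15 M. Every library at 0.7 M lay above every library at 0.15 M, as in 16.1% of genes, and the change was 4.13 ± 0.54 (SE), adjusted p = 5.4e-06. CG15067 made up 54.3 to 75.9% of the summed bomanin level at 0.7 M, against 19.1 to 32.9% at 0.15 M. IM3 had 7.66, 10.9, 7.22 and 8.21 at 0.7 M, against 1.34, 8.57, 1.08 and 1.64 at 0.15 M (1.496 ± 0.40, adjusted p = 0.0072). Library 2 at 0.15 M lay above 3 of the 4 libraries at 0.7 M. CG15068 had 4.08, 16.8, 4.47 and 3.53, against 0.937, 2.62, 0.575 and 0.411 (1.79 ± 0.49, adjusted p = 0.0082), and its call was lost without library 2 at 0.7 M (1.34, adjusted p = 0.052). The median change of the 7 members was 0.91, against 0.11 over all genes.

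The other members of this comparison depended on library 2. IM2 had 0.276, 15.2, 0.219 and 0.229 at 0.7 M, against 0.236, 1.01, 0 and 0 at 0.15 M (0.91 ± 0.53, adjusted p = 0.19). CG15065 had 0.381, 6.76, 0.329 and 0.461, against 0, 0.892, 0 and 0 (0.86 ± 0.48, adjusted p = 0.17). IM14 had 0, 5.89, 0.176 and 0.0907, against 0.170, 0.735, 0.202 and 0 (0.46 ± 0.53, adjusted p = 0.51). In all 3 genes library 2 was the highest of its group at both diets, and the remaining libraries lay below 1. IM10 had 9.17, 25.5, 10.1 and 6.97 at 0.7 M, against 5.32, 15.5, 4.73 and 6.81 at 0.15 M, overlapping groups that were not called (0.59 ± 0.42, adjusted p = 0.29). IM1 was above 0 in 2 of 4 libraries at 0.7 M and 1 of 4 at 0.15 M (exact permutation p = 0.71). With library 2 left out at both diets, a setting chosen after seeing the data, CG15067 (4.199 ± 0.61, adjusted p = 4.9e-05), IM3 (1.89 ± 0.38, adjusted p = 0.0012) and CG15068 (1.62 ± 0.50, adjusted p = 0.026) were called. Muscle markers were higher on 0.7 M sucrose, with 7 of 8 called and a sum of 23.7 to 72.4, against 12.6 to 20.1, and 4 of 8 fat body markers were lower. Of 7 gut markers tested 3 were called higher and none lower, and the list summed to 51.7 to 121 at 0.7 M, against 4.56 to 108 at 0.15 M. The part of these markers in the result was not tested.

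The RNAi genotypes were kept on the same diets, so the sugar response could be asked in each. CG15067 was called higher on 0.7 M sucrose in all 3, with the largest change of the 7 members tested in each. Under FOXO RNAi it had 42.2, 37.8, 38.5 and 68.7 at 0.7 M, against 7.97, 13.6, 1.77 and 17.1 at 0.15 M (2.37 ± 0.54, adjusted p = 0.0012). Under p53 RNAi it had 107, 125, 79.6 and 157, against 10.9, 1.34 and 25.02 (3.67 ± 0.59, adjusted p = 6.1e-05). Under Stat92E RNAi it had 40.9, 45.6, 29.9 and 55.2, against 0.750, 2.29, 0.633 and 1.56 (4.28 ± 0.54, adjusted p = 2e-06). The groups did not overlap in any genotype, and no single library decided these calls. Of all genes tested, 17.9% were called higher on 0.7 M under FOXO RNAi, 21.1% under p53 RNAi and 20.6% under Stat92E RNAi, and 15.6%, 27.4% and 22.4% in that order lay higher without overlap. Muscle markers summed to 31.4 to 57.4 at 0.7 M, against 9.32 to 17.9 at 0.15 M, under FOXO RNAi. Under p53 RNAi they had 36.4 to 56.4, against 16.6 to 17.8, and under Stat92E RNAi 37.8 to 65.5, against 17.0 to 33.6. Fat body markers summed to 6757 to 8107 at 0.7 M under p53 RNAi, against 9370 to 11600. Gut markers summed to 35.8 to 65.03 at 0.7 M under FOXO RNAi, against 99.7 to 352, and overlapped under p53 and Stat92E RNAi. The part of these markers was not tested.

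IM3 was also called higher under Stat92E RNAi, with 5.59, 4.01, 5.37 and 6.84 at 0.7 M, against 1.45, 1.26, 0.848 and 1.12 at 0.15 M (1.56 ± 0.40, adjusted p = 0.0039). Under FOXO RNAi it had 4.13, 4.56, 3.75 and 4.38, against 0.930, 2.44, 0.344 and 2.80 (1.11 ± 0.40, adjusted p = 0.031), a call lost without any of 5 of the 8 libraries (library 1 or 3 at 0.15 M, or 1, 2 or 4 at 0.7 M), with adjusted p up to 0.13. Under p53 RNAi IM3 was high on both diets, 11.9, 10.2, 14.7 and 12.4 at 0.7 M and 14.4, 4.07 and 25.3 at 0.15 M, and the groups overlapped (0.05 ± 0.43, adjusted p = 0.93). CG15068 was called higher under p53 RNAi, with 8.52, 23.3, 7.08 and 14.6 at 0.7 M, against 2.35, 0.703 and 5.36 at 0.15 M (1.98 ± 0.53, adjusted p = 0.0058). It was not called under FOXO RNAi (1.07 ± 0.49, adjusted p = 0.09) or Stat92E RNAi (0.59 ± 0.49, adjusted p = 0.36).

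IM10 and IM14 went the other way under p53 RNAi, where 16.9% of genes were called lower on 0.7 M. IM10 had 16.2, 5.59, 19.6 and 9.75 at 0.7 M, against 38.6, 10.5 and 80.3 at 0.15 M (-1.41 ± 0.46, adjusted p = 0.019). IM14 had 0.205, 0.0697, 0.156 and 0.218, against 8.66, 0.284 and 18.9 (-2.43 ± 0.57, adjusted p = 0.0022). Libraries 1 and 3 at 0.15 M were high in both genes and library 2 was not. The IM14 call held without any of the other 5 libraries, but without library 1 or 3 at 0.15 M its mean over the experiment fell to 0.964 or 0.622, under the filter, and it was not tested. IM14 passed the filter only through p53 RNAi at 0.15 M, the mean of the remaining groups being 0.347. Its call is therefore no support for a fall on 0.7 M. The IM10 call was lost without library 1 (adjusted p = 0.070) or library 3 (adjusted p = 0.21) at 0.15 M, or library 2 at 0.7 M (adjusted p = 0.071).

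Against the controls on the same diet, 1 of 7 members was called higher under FOXO RNAi at 0.15 M, and 1 of 7 was called lower at 0.7 M. At 0.15 M CG15067 had 7.97, 13.6, 1.77 and 17.1 scaled FPKM under FOXO RNAi, against 0.615, 3.15, 0.619 and 1.01 in controls (2.06 ± 0.54, adjusted p = 0.0098), where 6.58% of genes were called higher. The lowest FOXO RNAi library lay below the highest control library, and without library 4 of FOXO RNAi the adjusted p was 0.051. At 0.7 M CG15067 overlapped between the groups (0.29 ± 0.54, adjusted p = 0.73). IM10 was called lower at 0.7 M, where 17% of genes were: it had 3.18, 2.97, 2.85 and 3.64 under FOXO RNAi, against 9.17, 25.5, 10.1 and 6.97 in controls (-1.58 ± 0.42, adjusted p = 0.0062), without overlap and without dependence on any single library. At 0.15 M IM10 had 2.62, 3.34, 2.06 and 3.42 under FOXO RNAi, against 5.32, 15.5, 4.73 and 6.81 in controls, again without overlap, as had 10.6% of genes downward, but not called (-1.12 ± 0.42, adjusted p = 0.068). IM3 at 0.7 M showed the same pattern, with 4.13, 4.56, 3.75 and 4.38 under FOXO RNAi, against 7.66, 10.9, 7.22 and 8.21 (-0.86 ± 0.40, adjusted p = 0.12). IM2 had 1.53, 3.37, 1.71 and 2.57 under FOXO RNAi, against 0.276, 15.2, 0.219 and 0.229 in controls at 0.7 M (0.45 ± 0.53, adjusted p = 0.57). Without control library 2 it was called higher (1.37 ± 0.31, adjusted p = 0.0017); with all libraries 9.76% of genes were. A downward gap between the groups at 0.7 M was seen for 14.6% of genes. The sum of fat body markers was 6488 to 7818 under FOXO RNAi at 0.7 M, against 9443 to 13116 in controls, with 5 of 8 called lower and 1 higher. At 0.15 M, 6 of 8 fat body and 5 of 6 salivary markers were called lower, where 270 of 2521 genes were. Of 7 gut markers, 3 were called higher under FOXO RNAi at 0.15 M, where they summed to 99.7 to 352, against 4.56 to 108 in controls. At 0.7 M 3 of the 7 were called lower, with a sum of 35.8 to 65.03, against 51.7 to 121 in controls. The part of these markers in the result was not tested.

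Under p53 RNAi at 0.15 M, 3 of 7 members were called higher than in controls, where 1.11% of genes were. IM10 had 38.6, 10.5 and 80.3 under p53 RNAi, against 5.32, 15.5, 4.73 and 6.81 in controls (2.01 ± 0.46, adjusted p = 0.019). IM3 had 14.4, 4.07 and 25.3, against 1.34, 8.57, 1.08 and 1.64 (1.93 ± 0.43, adjusted p = 0.018). IM14 had 8.66, 0.284 and 18.9, against 0.170, 0.735, 0.202 and 0 (2.33 ± 0.57, adjusted p = 0.026). In each gene p53 RNAi libraries 1 and 3 were above all controls, and library 2 lay inside the range of the controls. The remaining members had the same order of libraries. CG15067 had 10.9, 1.34 and 25.02 under p53 RNAi, against 0.615, 3.15, 0.619 and 1.01 in controls (2.06 ± 0.59, adjusted p = 0.063). CG15065 had 3.03, 0 and 6.57, against 0, 0.892, 0 and 0 (1.41 ± 0.52, adjusted p = 0.17). IM2 had 4.09, 0.571 and 5.25, against 0.236, 1.01, 0 and 0 (1.55 ± 0.57, adjusted p = 0.17).

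These calls rested on few libraries, from a group whose column headings differ in form from those of its controls. IM3 and IM10 lost theirs without control library 1 or 3 (adjusted p = 0.061 to 0.067) and without p53 RNAi library 1 (0.10 for both) or library 3 (0.15 for IM3 and 0.17 for IM10). IM14 lost its call without control library 1, 3 or 4 (adjusted p = 0.059 to 0.070) and with a pseudocount of 0.1 (adjusted p = 0.080). It passed the filter only through p53 RNAi at 0.15 M, the mean of the remaining groups being 0.347, so its call is no support for a rise there, and without p53 RNAi library 1 or 3 it was not tested. With only these 2 groups in the fit none was called (adjusted p = 0.18 to 0.19). Without p53 RNAi library 2 there were 5 calls, with CG15067 (3.03 ± 0.54, adjusted p = 0.001) and CG15065 (2.24 ± 0.48, adjusted p = 0.0087) added. Without control library 2, CG15067 was added (2.37 ± 0.61, adjusted p = 0.035). With both control libraries 2 left out, 6 of 7 members were called, CG15068 being the exception (1.03 ± 0.50, adjusted p = 0.30). The share of all genes called in these refits is not given here, so the counts describe the members only. Markers of other tissues moved in the same libraries. Gut markers summed to 159, 74.5 and 289.9 in p53 RNAi libraries 1 to 3, against 4.56 to 108 in controls, and 1 of 7 was called higher (alphaTry, 1.88 ± 0.45, adjusted p = 0.024). Haemocyte markers summed to 11.2, 8.81 and 15.3, against 7.198 to 10.1, and 1 of 2 was called higher (CG8193, 0.86 ± 0.21, adjusted p = 0.024). None of 8 fat body markers was called. The part of these markers in the result was not tested.

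At 0.7 M no member was called under p53 RNAi, where 4.6% of genes were called higher. CG15067 had 107, 125, 79.6 and 157 under p53 RNAi, against 34.5, 61.9, 38.6 and 22.1 in controls, without overlap (1.60 ± 0.54, adjusted p = 0.052), as did 6.15% of genes upward. Without control library 2, 4 members were called higher: CG15067 (1.85 ± 0.58, adjusted p = 0.026), IM2 (1.19 ± 0.31, adjusted p = 0.0079), CG15065 (1.13 ± 0.41, adjusted p = 0.047) and CG15068 (1.38 ± 0.48, adjusted p = 0.041). In the 3 short bomanins among them, every control library but number 2 lay below all p53 RNAi libraries. The share of all genes called without control library 2 is not given here, so the count of 4 describes the members only.

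**Figure D4:**
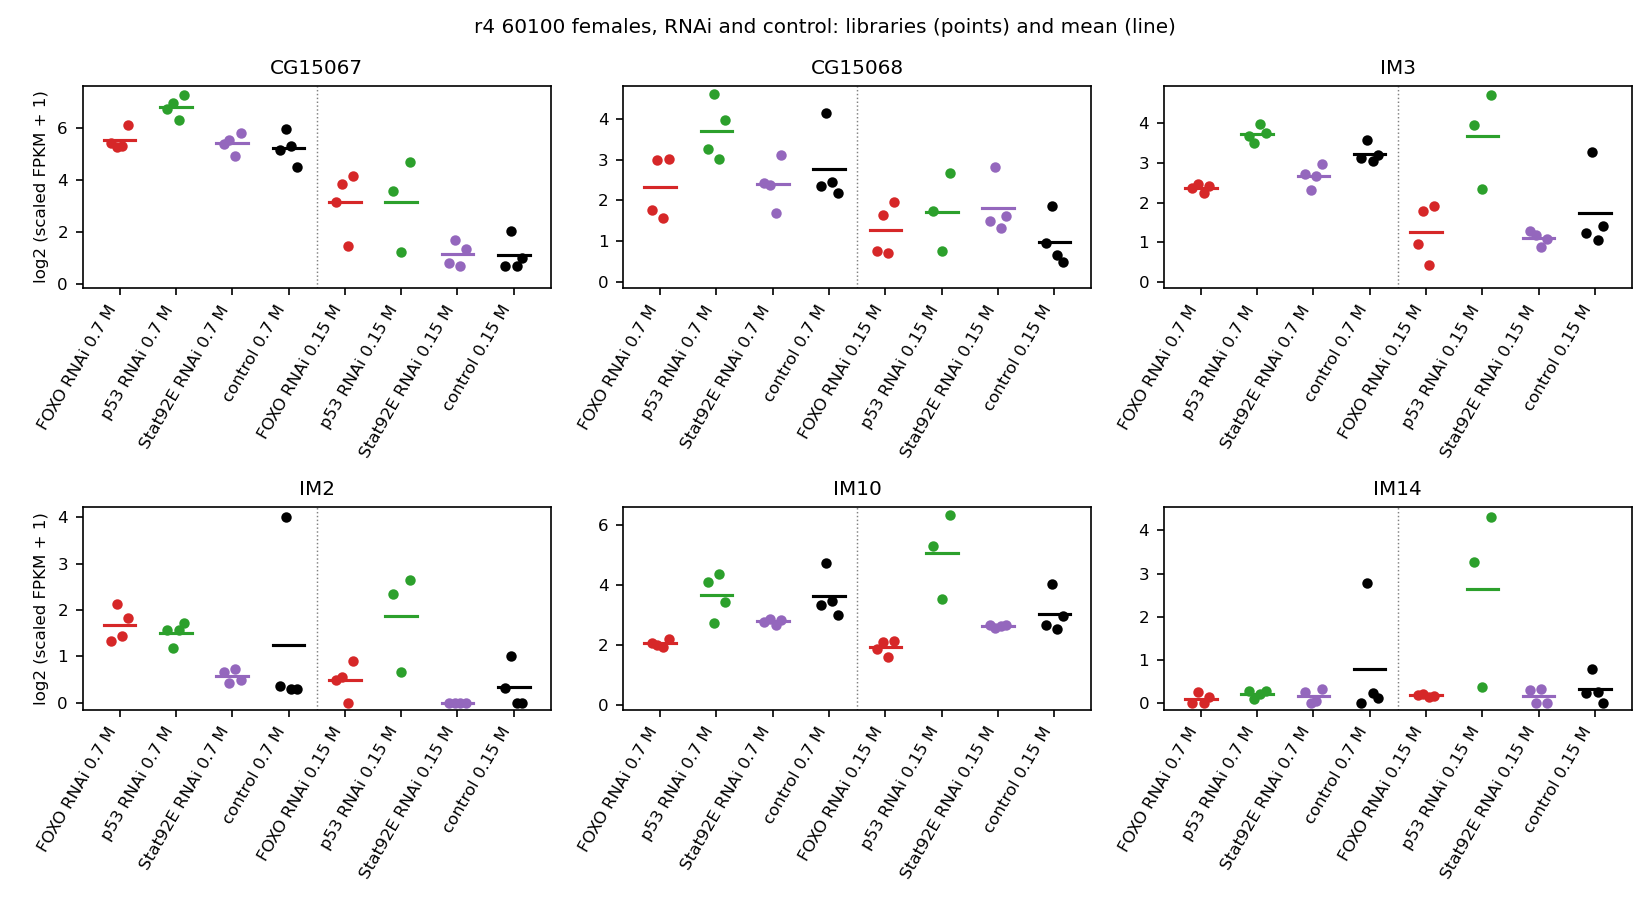
Values of CG15067, CG15068, IM3, IM2, IM10 and IM14 in r4 60100 females, as log2 (scaled FPKM + 1), for FOXO, p53 and Stat92E RNAi and controls at 0.7 M (left of the dotted line) and 0.15 M sucrose, with a point per library and a line at the mean. CG15067 is higher at 0.7 M in every genotype, IM10 is lowest under FOXO RNAi, and p53 RNAi at 0.15 M has 2 high libraries and 1 low one in IM3, IM10 and IM14.

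Stat92E RNAi gave no called member on either diet, where 1.47% of genes were called higher and 1.63% lower at 0.15 M, and 6.7% and 6.35% at 0.7 M. The largest change among the 7 members at 0.15 M was that of CG15068, with 1.83, 6.01, 1.496 and 2.06 under Stat92E RNAi, against 0.937, 2.62, 0.575 and 0.411 in controls (0.82 ± 0.49, adjusted p = 0.29). At 0.7 M IM10 had 5.77, 6.38, 5.29 and 6.18 under Stat92E RNAi, against 9.17, 25.5, 10.1 and 6.97 in controls, and the groups did not overlap (-0.85 ± 0.42, adjusted p = 0.17). IM3 had 5.59, 4.01, 5.37 and 6.84, against 7.66, 10.9, 7.22 and 8.21, also without overlap (-0.56 ± 0.40, adjusted p = 0.35). Such a downward gap was seen in 7.85% of genes. IM2, IM1 and CG15065 were listed at 0 in all 4 Stat92E RNAi libraries at 0.15 M.

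No member's sugar response was called different from that of controls in any RNAi genotype. Among all genes, 13.6% were called in either direction for FOXO RNAi, 0.278% for p53 RNAi and 0.238% for Stat92E RNAi. The CG15067 response differed by -1.76 ± 0.77 (SE), adjusted p = 0.12 under FOXO RNAi, and the difference was called without library 3 of FOXO RNAi at 0.15 M (-2.33 ± 0.70, adjusted p = 0.038). Under p53 RNAi the responses of IM14 (-2.90 ± 0.78, adjusted p = 0.19) and IM10 (-1.99 ± 0.62, adjusted p = 0.3) were the largest differences, and both were called without library 2 of p53 RNAi at 0.15 M (-4.04 ± 0.58, adjusted p = 0.0002, and -2.76 ± 0.54, adjusted p = 0.0052), while IM14 was under the filter without library 1 or 3. IM14 passed the filter only through p53 RNAi at 0.15 M, so its difference is no support for a changed response. Under Stat92E RNAi the CG15067 response differed by 0.15 ± 0.77 (SE), adjusted p = 0.95.

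In dissected cg males, the effect of 1.0 M against 0.15 M sucrose in controls was not called for any of the 7 members tested, where 5.37% of 2698 genes were called higher and 22.9% lower. Members varied widely within these groups. IM3 had 24.6, 4.17 and 3.92 at 1.0 M, against 12.7, 16.3 and 2.27 at 0.15 M (-0.08 ± 0.87, adjusted p = 0.95). IM10 had 9.91, 1.67 and 1.57, against 14.2, 12.0 and 2.35 (-1.05 ± 0.69, adjusted p = 0.27). Library 1 was the highest at 1.0 M and library 3 the lowest at 0.15 M in both genes. IM1, IM2, CG15065 and IM14 showed the same libraries at the extremes. CG15068 had 5.67, 3.61 and 2.52 at 1.0 M, against 2.67, 4.48 and 0 (0.81 ± 0.50, adjusted p = 0.25). Fat body markers summed to 2835 to 4450 at 1.0 M in these controls, against 9366 to 11052 at 0.15 M. Haemocyte markers summed to 0.846 to 1.25, against 1.81 to 2.20, and gut, muscle and salivary sums overlapped. The part of these shifts in the result was not tested.

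Under Tfb1 RNAi on 1.0 M sucrose, CG15068 and CG15065 were higher than in controls. CG15068 had 38.4, 30.98 and 30.1 under Tfb1 RNAi, against 5.67, 3.61 and 2.52 in controls (2.83 ± 0.50, adjusted p = 0.0022). CG15065 had 40.2, 27.9 and 9.63, against 10.4, 1.68 and 1.12 (2.54 ± 0.75, adjusted p = 0.033). These 2 of 7 members were called higher, where 12.2% of genes were. The CG15068 groups were well apart, while the lowest CG15065 value under Tfb1 RNAi lay below the highest control. The CG15065 call was lost without control library 2 or 3, or Tfb1 RNAi library 1 or 2 (adjusted p = 0.10 to 0.12), and with no filter (0.078) or the compared groups alone (0.067). That of CG15068 was kept without any single library but lost with a pseudocount of 0.1 (adjusted p = 0.068). IM2 had 13.1, 3.60 and 0.636 under Tfb1 RNAi, against 26.4, 2.15 and 2.26 (-0.47 ± 0.99, adjusted p = 0.75), and IM3 had 13.1, 5.85 and 1.23, against 24.6, 4.17 and 3.92 (-0.53 ± 0.87, adjusted p = 0.68). CG15068 made up 32.96 to 71.8% of the bomanin sum under Tfb1 RNAi at 1.0 M, against 6.26 to 27.3% in controls.

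At 0.15 M only CG15068 was called higher, where 10.4% of genes were, with 9.47, 8.99 and 9.03 under Tfb1 RNAi, against 2.67, 4.48 and 0 in controls (1.90 ± 0.50, adjusted p = 0.013). The change was 1.18 without control library 3, which was listed at 0 for this gene, and remained called (adjusted p = 0.0077). The call was lost with a pseudocount of 0.1 (adjusted p = 0.053) and with the compared groups alone (adjusted p = 0.055). CG15065 overlapped, with 6.52, 8.79 and 10.8 under Tfb1 RNAi, against 7.51, 7.15 and 0.920 (0.90 ± 0.75, adjusted p = 0.42). IM10 had 0.848, 2.56 and 1.82, against 14.2, 12.0 and 2.35 (-1.72 ± 0.69, adjusted p = 0.076). It was called lower without control library 3 (-2.41 ± 0.63, adjusted p = 0.018). IM14 had 0.405, 0.430 and 0.371, against 3.88, 4.74 and 1.32, without overlap (-1.52 ± 0.88, adjusted p = 0.22), as had 34.9% of genes downward. CG15067 was listed at 0 in all 3 Tfb1 RNAi libraries.

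Within Tfb1 RNAi, CG15068 was higher at 1.0 M than at 0.15 M in every library, with a change of 1.74 ± 0.50 (SE), adjusted p = 0.043, where 5.6% of genes were called higher. This call did not hold without any one of the 6 libraries (adjusted p = 0.082 to 0.12), with a pseudocount of 0.1 (adjusted p = 0.35) or with no filter (adjusted p = 0.12). The difference between this response and that of controls was not called (0.93 ± 0.71, adjusted p = 0.41), where 8.41% of genes were in either direction, and was called without control library 3 at 0.15 M (1.65 ± 0.35, adjusted p = 0.024). Fat body markers were lower under Tfb1 RNAi, 7 of 8 at 0.15 M and 6 of 8 at 1.0 M, and summed to 1629 to 2154 at 1.0 M, against 2835 to 4450 in controls. Haemocyte markers, of which 1 was tested and called higher, summed to 3.01 to 4.84 under Tfb1 RNAi at 1.0 M, against 0.846 to 1.25 in controls. The part of these shifts in the result was not tested. Column headings of the male libraries name r4, whereas the labels, followed here, give cg-GAL4. The same form of heading stands over p53 RNAi at 0.15 M, for which the labels give r4-GAL4.

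**Figure D5:**
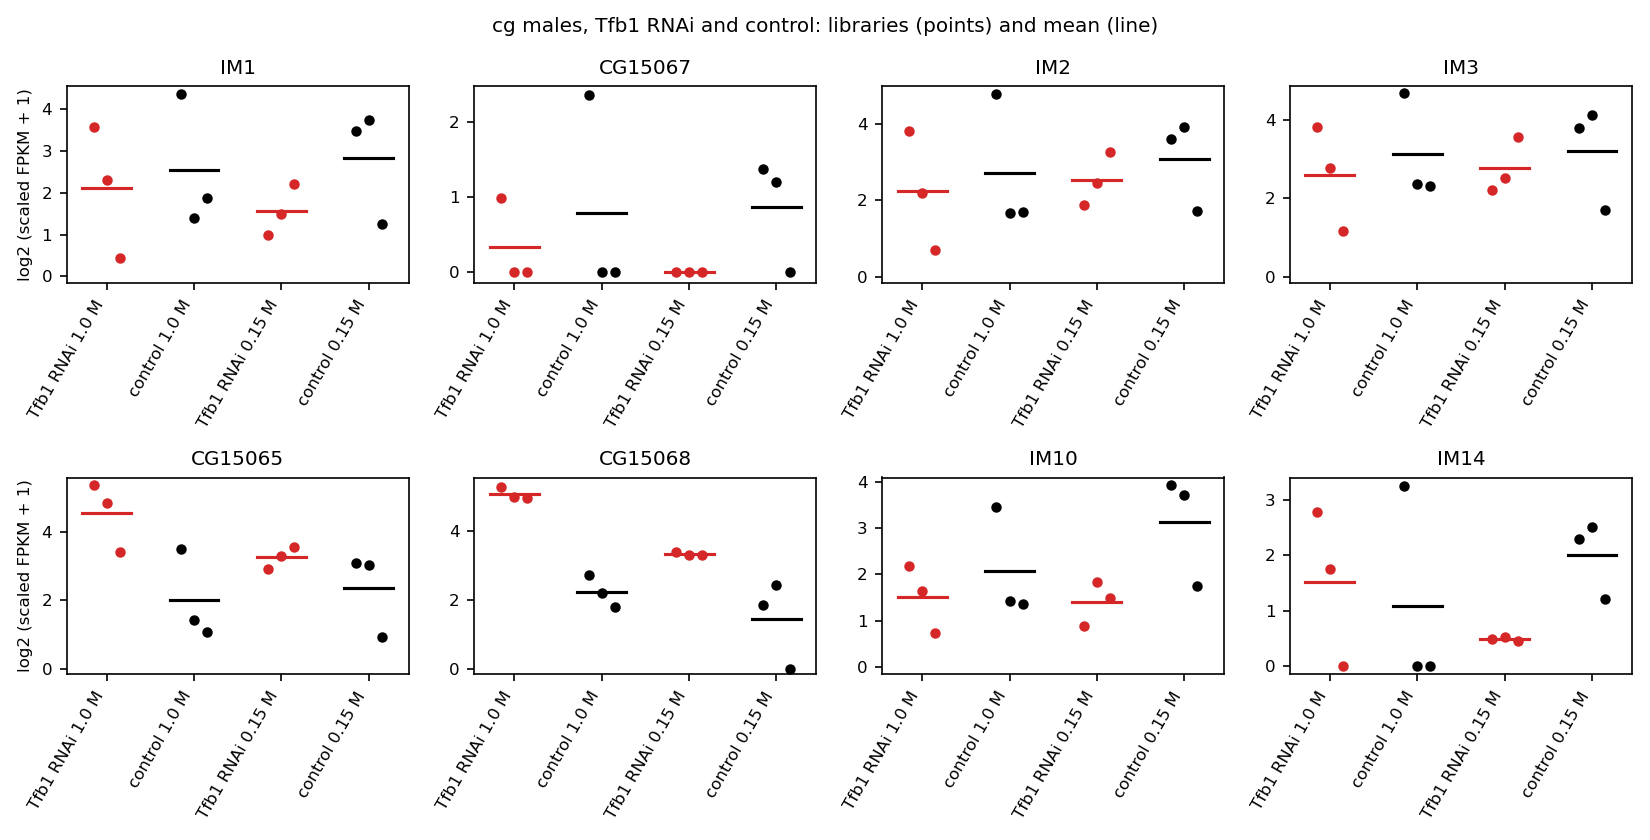
Values of the 8 genes in cg males, as log2 (scaled FPKM + 1), for Tfb1 RNAi (red) and controls (black) at 1.0 M and 0.15 M sucrose, with a point per library and a line at the mean of 3. CG15068 is at 30.1 to 38.4 scaled FPKM under Tfb1 RNAi at 1.0 M, against 2.52 to 5.67 in controls, whereas IM1, IM2 and IM3 overlap.

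The members varied together only in part. Over all 61 libraries, each experiment centred on its own mean, IM1 and IM2 had the highest correlation of log2 values (r = 0.87), and IM10 and IM14, which lie outside the cluster, had r = 0.80. CG15068 had r = 0.15 with IM14 and 0.22 with IM10, and CG15067 had 0.22 with IM14. The pattern differed by experiment. In cg females every pair of members lay at 0.78 or above, whereas in males CG15068 had r = 0.85 with CG15065, its neighbour in the cluster, and 0.01 with IM1 and with IM2. In r4 60100 females CG15067 had r = 0.80 with CG15068 and 0.08 with IM14. These coefficients describe libraries that share diet, genotype and scaling and carry no p. Among 1552 genes passing the filter in every experiment, the 5 most like the mean bomanin profile over the 61 libraries were CG18067 (r = 0.80), nemy (0.74), pst (0.70), CG8801 (0.68) and Mtk (0.66). CG18067 is Bombardier, which adult flies need to have short bomanins in their haemolymph, and Mtk is metchnikowin, an antifungal peptide.

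Genes listed with the other Toll effectors moved in both directions. CG16836 (BomT2), which lies between IM3 and CG15065 in the cluster, was called higher in r4 w1118 females at 0.7 M (2.26 ± 0.48, adjusted p = 0.012) and 1.0 M (3.31 ± 0.48, adjusted p = 0.0011), in 60100 controls at 0.7 M (1.99 ± 0.41, adjusted p = 0.00098), and under p53 RNAi at 0.15 M (1.87 ± 0.44, adjusted p = 0.023). Its 0.7 M libraries of 60100 controls had 5.603, 9.00, 5.61 and 5.25, against 0.288, 2.34, 0.497 and 0.696 at 0.15 M. CG16836 was also higher on 0.7 M under Stat92E RNAi (1.85 ± 0.41, adjusted p = 0.001) and FOXO RNAi (1.13 ± 0.41, adjusted p = 0.03). Under p53 RNAi its sugar response was not called (1.06 ± 0.44, adjusted p = 0.058). CG18067 was called higher on high sugar in cg females (1.46 ± 0.19, adjusted p = 0.0019), in r4 w1118 females at 1.0 M (0.98 ± 0.27, adjusted p = 0.032) and in 60100 controls (0.91 ± 0.21, adjusted p = 0.0022). In males it was lower under Tfb1 RNAi at 0.15 M (-0.86 ± 0.21, adjusted p = 0.0092) and higher at 1.0 M (0.74 ± 0.21, adjusted p = 0.029), and the difference of the sugar responses was called (1.60 ± 0.30, adjusted p = 0.0085). Drs, the antifungal peptide drosomycin, was higher under p53 RNAi at 0.15 M (1.90 ± 0.36, adjusted p = 0.0036) and lower at 0.7 M (-1.18 ± 0.33, adjusted p = 0.023). Its sugar response there was the one called as different from controls (-3.08 ± 0.49, adjusted p = 0.0015) among the 5 genes of this list tested. Within p53 RNAi, Drs was lower on 0.7 M than on 0.15 M sucrose (-3.19 ± 0.36, adjusted p = 3.9e-07). Drs was lower under Tfb1 RNAi on both diets (-2.25 ± 0.42, adjusted p = 0.0017 at 0.15 M and -1.42 ± 0.42, adjusted p = 0.031 at 1.0 M). In cg females on 0.7 M sucrose, Drs (1.49 ± 0.34, adjusted p = 0.016) and IM23, which is BomBc1 (1.45 ± 0.41, adjusted p = 0.033), were called higher. Mtk was not called there (1.79 ± 0.72, adjusted p = 0.092). Under p53 RNAi at 0.15 M, Mtk was higher than in controls (1.74 ± 0.40, adjusted p = 0.019). The drosomycin-like gene dro5 is on the list too, and whether Toll controls it was not examined here. On high sugar dro5 was lower in cg females (-2.83 ± 0.35, adjusted p = 0.0015), under p53 RNAi (-2.27 ± 0.74, adjusted p = 0.019) and under Tfb1 RNAi (-3.14 ± 0.38, adjusted p = 0.00034). It was also lower under Tfb1 RNAi than in controls at 1.0 M (-2.33 ± 0.38, adjusted p = 0.0013).

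Upstream genes of the pathway did not move as a block. In cg females on 0.7 M sucrose, 5 of 10 recognition and ligand-processing genes tested were called higher, where 27.5% of all genes were, and none lower. Among the 5 were nec, a serpin that restrains the cascade (0.83 ± 0.20, adjusted p = 0.019), and PGRP-SD, a peptidoglycan sensor (0.68 ± 0.13, adjusted p = 0.0076). In control males on 1.0 M, 6 of 7 were called lower, where 22.9% of all genes were. PGRP-SA (-1.15 ± 0.15, adjusted p = 0.00032) and PGRP-SD (-1.16 ± 0.13, adjusted p = 0.00015) were among the 6. In r4 w1118 females none of 10 was called at 0.7 M, and in 60100 controls 1 of 10 was, the protease grass (0.62 ± 0.18, adjusted p = 0.0098). Of the 8 listed genes of Toll signalling from receptor to NF-kappaB, 1 to 3 passed the filter. The gene cact, which encodes the inhibitor Cactus, was lower on 0.7 M in 60100 controls (-0.53 ± 0.11, adjusted p = 0.00082) and p53 RNAi (-0.62 ± 0.12, adjusted p = 0.00031). It was also lower on 1.0 M in control males (-0.59 ± 0.14, adjusted p = 0.012), and higher under Tfb1 RNAi than in controls at 1.0 M (0.65 ± 0.14, adjusted p = 0.0076). On 0.7 M cact was not called in cg females (0.32 ± 0.18, adjusted p = 0.19) or r4 w1118 females (-0.28 ± 0.11, adjusted p = 0.12). Another gene of this list, pll, was higher on 0.7 M in 60100 controls (0.22 ± 0.08, adjusted p = 0.03). Of 6 effectors tested of the parallel Imd pathway, which Gram-negative bacteria trigger, 3 were called lower on 0.7 M in 60100 controls and none higher, where 12.4% of all genes were called lower. Dro was among them (-1.25 ± 0.33, adjusted p = 0.0066). In cg females on 0.7 M only DptB was called, and it was higher (2.89 ± 0.85, adjusted p = 0.035). In r4 w1118 females at 1.0 M only AttC was called, also higher (1.89 ± 0.24, adjusted p = 0.00042). In control males on 1.0 M AttA, AttB (-2.75 ± 0.54, adjusted p = 0.0038) and CecC were called lower and none higher. Of the 6 effectors tested in 60100 females, 4 were called higher under p53 RNAi than in controls on each diet. Among all genes, 1.11% were called higher at 0.15 M and 4.6% at 0.7 M. The 4 included DptB at 0.15 M (2.36 ± 0.26, adjusted p = 1.7e-06). Under FOXO RNAi 3 of the 6 were called lower than in controls on each diet, including AttA at 0.7 M (-2.15 ± 0.26, adjusted p = 4.6e-07). Among all genes, 270 of 2521 were called lower at 0.15 M and 17% at 0.7 M.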

How the data were processed

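RNA-seq values of larval fat body were taken from 1 table of FPKM that the authors deposited for 61 libraries of 18 groups; the labels list 62 samples. Per the submitters' processing notes, TopHat 1.3.2, Bowtie 0.12.7, Cufflinks 1.1.0 and the dm3 genome were used. A scaling of each library to 1 FPKM at a fixed gene rank was found in the values and is not stated in the labels. Of the columns, 18 were matched to samples by title and 43 to a group. Counts and depth are not given in the sources used here.

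Each experiment was fitted alone with limma 3.58.1 in R 4.3.3 (a mean per group, empirical Bayes with trend) on log2 (FPKM + 1), over genes with a mean FPKM of at least 1. P-values are two-sided and adjusted by Benjamini-Hochberg over all genes of a comparison; differences of sugar responses are interaction contrasts. Members below the filter had exact two-sided permutation tests, 21 in all, whose adjusted p was 1 throughout. The fit was tested on simulated data. Values were prepared and drawn with Python 3.11.15, pandas 2.3.3, numpy 2.4.6, scipy 1.17.1 and matplotlib 3.10.9. Alternatives were a pseudocount of 0.1, no filter, rescaling by median ratio, limma without trend, a replicate block, a fit of the compared groups alone and leaving out each library.

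The members and gene lists were chosen with earlier results of these data known. All 8 members are described in each family of comparisons. Of the other lists only some of the called genes are named, at most 3 per direction in a comparison. Gene names were matched to RefSeq by CG number, 8 of 8. Of the list symbols, dl, hop, NimC1, PPO1 and CG43202 were not found under the names tried.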

Additional observations from a re-analysis of the deposited data

Results flagged for a closer look

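Values that stood apart from the other libraries of their group by Dixon's test at the 95% level were looked for in 52 sets of 4 libraries, all in r4 60100 females. The sets are correlated genes of the same libraries with many values listed at 0, so no chance rate is set against the count. There were 8 such values, and all were in control library 2 of a diet, where that library was the highest of the 4. At 0.7 M sucrose they were IM2 at 15.2 scaled FPKM, CG15068 at 16.8, CG15065 at 6.76, IM14 at 5.89 and IM1 at 2.57. At 0.15 M they were IM3 at 8.57, CG15065 at 0.892 and IM1 at 0.264. For CG15065 and IM1 every other control library at 0.15 M was listed at 0, so any value above 0 would stand apart. Library numbers in this experiment are column order, so the 2 libraries share a number and no known source. The results with both left out stand beside the comparisons they touch.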

How the results depend on the processing

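No called change of a member reversed its direction under any alternative tried. Of 31 called changes, 31 kept their call in limma without trend, 30 with rescaling by median ratio, 27 with a pseudocount of 0.1 and 26 with no filter on low values. With the compared groups alone 18 of 24 kept it, and of the 218 single-library omissions 178 did, leaving out those that put IM1 or IM14 under the filter.

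With a pseudocount of 0.1 the members called higher were 0 for sugar under Tfb1 RNAi, 0 for Tfb1 RNAi at 0.15 M and 1 at 1.0 M, and 4 for sugar under Stat92E RNAi, with 1 lower for FOXO RNAi at 0.15 M. With no filter they were 0 for sugar under Tfb1 RNAi, 1 for Tfb1 RNAi at 1.0 M and 2 in cg females. Rescaling gave 1 higher for p53 RNAi at 0.7 M. With the compared groups alone there were 0 higher and 1 lower for Tfb1 RNAi at 0.15 M and 1 higher at 1.0 M, 1 lower for sugar under p53 RNAi, 2 lower for FOXO RNAi at 0.7 M, and 0 and 1 higher for p53 RNAi at 0.15 M and 0.7 M. Without both 60100 control libraries numbered 2, a setting chosen after seeing the data, 1 was higher for FOXO RNAi at 0.7 M, 6 for p53 RNAi at 0.15 M and 4 at 0.7 M.

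Leaving out 1 library gave 1 to 6 members called higher in cg females, 0 to 0 for sugar under Tfb1 RNAi, 1 to 2 for Tfb1 RNAi at 1.0 M and 0 to 1 for the Tfb1 interaction, with 0 to 1 lower for Tfb1 RNAi at 0.15 M. In 60100 females it gave 1 to 2 higher for sugar under FOXO RNAi, 0 to 2 lower for sugar under p53 RNAi, 0 to 1 higher for FOXO RNAi at each diet and 0 to 1 lower for the FOXO interaction. For p53 RNAi it gave 0 to 5 higher at 0.15 M, 0 to 4 at 0.7 M and 0 to 2 lower for the interaction. Shares of all genes called under the alternatives of this section are not given here, so these counts describe the members only.

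Replicate numbers pair no samples by the labels. Deviations of same-numbered libraries correlated at -0.07 to 0.09 in cg females and -0.20 to 0.37 in r4 w1118 females, with 0 of 3 and 6 of 18 pairs above 0.1. With the number as a replicate block, 10 of 11 called changes kept their call, and IM1 in cg females (2.64) did not. Rescaling moved the median change of all genes by at most 0.11, from sugar under FOXO or p53 RNAi. No fit of the compared groups alone was made for the trend, cg females or the Tfb1 interaction. Depth is unknown, and values near 0 in these short transcripts are imprecise.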
